A study of Mus musculus with 21 samples.

Results

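The genes described here are 9 mouse genes of the Hedgehog pathway, its receptors and GLI factors: Ptch1 and Smo, which encode the receptor and the signal transducer at the cell surface, Hhip, which encodes a ligand-binding antagonist, Cdon, Boc and Gas1, which encode co-receptors, and Gli1, Gli2 and Gli3, which encode the transcription factors at the end of the pathway. They were chosen by name, with earlier results of these data known, and all 9 were found among the 26852 genes of the deposited table after its Ensembl identifiers were matched to mouse symbols. The study profiled bone marrow stromal cells of mice engrafted with human acute myeloid leukemia (AML). The libraries used here are 21 RNA-seq libraries of sorted Nes low mesenchymal cells, a stromal fraction sorted for a low level of a green fluorescent reporter driven by Nestin sequences, so that the fraction is defined by the reporter and not by the protein itself. The question they address is how these cells differ between marrow without leukemia, cells close to and away from AML cells at an early stage, and marrow at a late stage.

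All hosts were Nestin+ NSG mice, which carry the Nestin reporter on an immunodeficient background without mature lymphocytes. Leukemic hosts received the AML cells at 8 to 12 weeks of age and were not conditioned. The control group (ctrl, 3 libraries) came from unengrafted mice of the same strain. The leukemic mice carried HL60 or ML1, both established human AML cell lines, engineered to secrete a red mCherry protein that nearby host cells take up. At the early stage the Nes low cells were sorted into mCherry-positive cells (ch+), which had taken up the protein, and mCherry-negative cells (ch-), with 3 libraries of each from HL60 and 3 of each from ML1. The late group, taken at advanced leukemia without a sort on mCherry, held 3 libraries from HL60 and 3 from ML1. The study describes ch- cells as coming from the same marrow as ch+ cells, but no label pairs a ch+ with a ch- library by animal, and the tests here treat the libraries as independent. No label gives the number of mice behind a library, so a test here uses the spread between libraries. For the 3 ML1 late libraries, one label field describes mice without engraftment, whereas the title and the time point field place them in late, where they were kept. Late results of the members against ctrl are given for HL60 and ML1 apart on the deposited scale, late against ch+ was tested over both lines only, and the calls that were lost without the ML1 late libraries are named. The extraction text in the labels of these libraries describes a sort of endothelial cells by CD31, whereas their titles and cell type field name Nes low mesenchymal cells.

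In the Hedgehog pathway, PTCH1 holds SMO inactive until a Hedgehog ligand binds it. SMO then acts through the primary cilium to turn GLI2 and GLI3 from repressors toward activators of transcription, and GLI1, PTCH1 and HHIP are themselves among the classical targets of this signal. In bone, the pathway is known for its role in growth plate cartilage and in the formation of osteoblasts, and Gli1 marks mesenchymal cells of bone and marrow.

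Values are the authors' normalized and regularized log2 values, and a difference of 1 is a doubling. The study's methods name a log10 transformation, but the values were read as log2 from their range. Read counts could not be recovered from such values. The methods give a typical yield of reads, and the depth of single libraries is unknown. The sum over all genes off the log scale, in units of 1000000, was 7.26 to 9.02 in the late libraries (median 7.93) and 11.9 to 14.2 in the ctrl libraries (median 12.8). In the early libraries it was 11.2 to 12.6 for ch+ (median 12.4) and 12.3 to 14.7 for ch- (median 13.7). All late sums lay below those of every other group. Nes, the gene behind the reporter, had a mean log2 value of 7.30 in late, 7.30 in ch+, 7.32 in ch- and 7.39 in ctrl libraries. Within late it averaged 6.92 with HL60 and 7.68 with ML1 (adjusted p 0.212 in limma). Nes passed the test described below in none of the 16 comparisons. Markers of CXCL12-abundant reticular (CAR) cells, the stroma that the Nes low gate is known for, were present in every library, with Cxcl12 as the most abundant at a log2 value of 14.89 or more. Pecam1, which encodes CD31 and marks endothelial cells, averaged 5.59 in ctrl libraries. Ptprc, which marks blood cells, averaged 2.56 in ctrl, 2.43 in late, 4.79 in ch+ (adjusted p 0.00068 in limma) and 4.21 in ch- libraries (adjusted p 0.0323). Within ch- it averaged 3.28 with HL60 (adjusted p 0.626 against ctrl in limma, not called) and 5.13 with ML1 (adjusted p 0.00259).

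The 9 genes lie on 7 chromosomes of GRCm38, and none of their exons overlaps those of another member. Ptch1 (ENSMUSG00000021466) lies on chromosome 13 from 63508328 to 63573598, as do Gli3 (ENSMUSG00000021318) from 15463235 to 15730026 and Gas1 (ENSMUSG00000052957) from 60174405 to 60177365. Smo (ENSMUSG00000001761) lies on chromosome 6 from 29735503 to 29761365, Hhip (ENSMUSG00000064325) on chromosome 8 from 79965851 to 80058006 and Cdon (ENSMUSG00000038119) on chromosome 9 from 35421128 to 35507652. The remaining members are Gli1 (ENSMUSG00000025407) on chromosome 10 from 127329882 to 127341974, Gli2 (ENSMUSG00000048402) on chromosome 1 from 118834132 to 119053619 and Boc (ENSMUSG00000022687) on chromosome 16 from 44485049 to 44558897. Exons of Gli1 overlap Arhgap9 on the opposite strand, whose own log2 value was at most 1.35 in any library, and exons of Gli3 and Hhip overlap Gm6556 and Gm27820, which reached at most 2.51 and −2.20. Exons of Gas1 and Gli1 also overlap Gm48488 and Gm47200 on the opposite strand, which are not in the table. The authors describe strand-specific reads and a strand setting in counting, whereas the named cDNA kit does not mark strand. How reads from these overlaps were assigned was not tested, so they may not be told apart.

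All 9 members passed the filter on low values, a mean log2 value of at least 3.32 (10 normalized counts), which 12976 genes passed. Levels can be compared between genes only per length, here as log2 of the mean value per kilobase of merged exons. In ctrl libraries this level was highest for Smo (7.34) and Cdon (7.30), followed by Gas1 (6.75), Ptch1 (6.73), Gli3 (5.86), Boc (5.72), Gli2 (4.65), Hhip (3.98) and Gli1 (3.10). Smo and Cdon, Gas1 and Ptch1, and Gli3 and Boc differed from each other by less than the larger of their SDs over ctrl libraries. In late libraries Smo (7.21) and Gas1 (6.84) were at the top, Cdon (5.84) and Ptch1 (5.43) had moved to the middle below Gli3 (6.14), and Gli1 (1.83) and Hhip (1.37) were at the bottom.

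Over the stages the members did not move together. Ptch1 was low in ch+ and in late libraries and was not called against ctrl in ch- libraries. Cdon was above ctrl in ch+ libraries and below it in both ch- and late libraries. Hhip was lowest in late, and there lower in ML1 than in HL60. Smo, Gli3 and Gas1 passed the test in none of the comparisons of the deposited values.

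**Figure D1:**
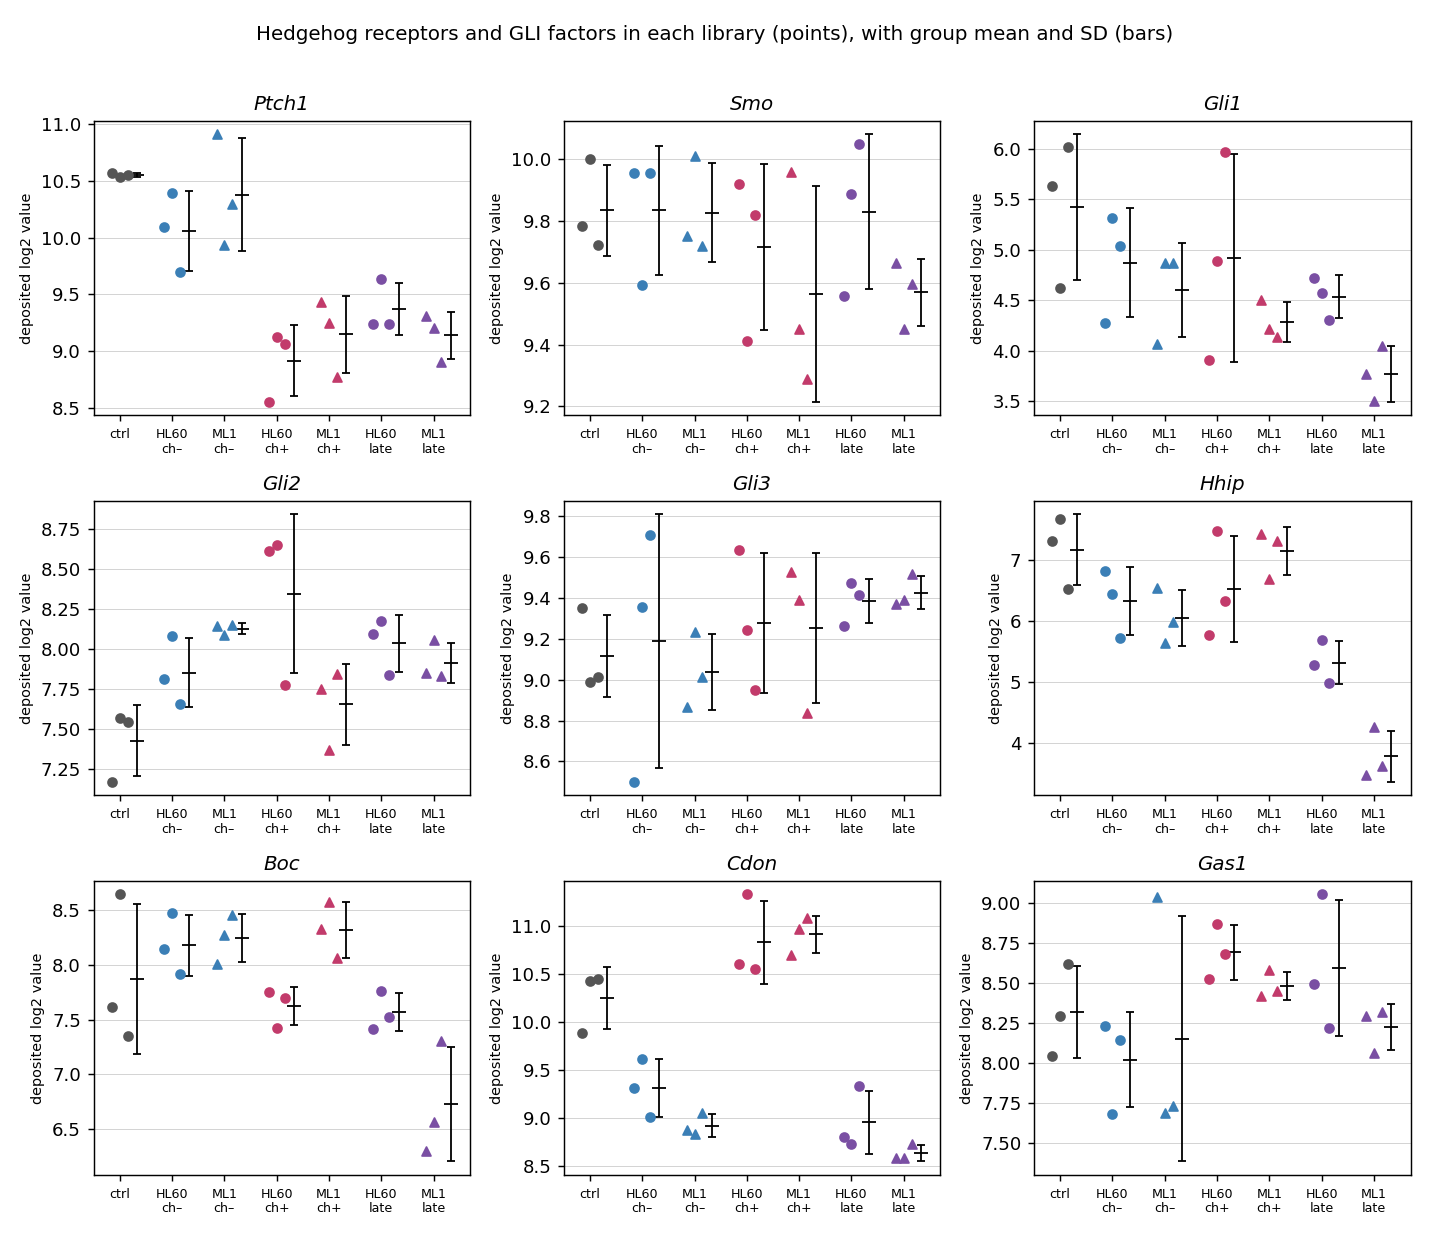
Deposited log2 value (vertical axis) of each of the 9 genes in each library, with ctrl and HL60 as circles, ML1 as triangles, and a bar for the mean and SD of each group of 3 libraries. Ptch1 lies at 8.56 to 9.64 in all ch+ and late libraries and at 9.70 or more in all others, and Cdon lies at 10.56 or more in ch+ libraries against 9.61 or less in ch- and late libraries.

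Each comparison was tested with limma over all 12976 genes, and a gene with a Benjamini-Hochberg adjusted p under 0.1 is called. In late against ctrl over both lines, 6 of the 9 members were called, 5 lower and 1 higher, where 22.8% of all tested genes were called. The median log2 fold change of the members was −0.72, against 0.02 for all tested genes. In HL60 alone 3 members were called, all lower, with 13.7% of all genes called, and in ML1 alone 5 members, all lower, with 22.0% of all genes called. With the ML1 late libraries left out of the fit, an alternative chosen after seeing the data, 3 members were called in late, with 1642 of 12976 genes called at this setting.

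At the early stage fewer members were called. In ch+ against ctrl over both lines, Ptch1 was lower and Cdon higher, 2 of 9 members against 8.18% of all genes. In HL60 this comparison called Ptch1 lower and Gli2 higher (background 5.33%) and in ML1 Ptch1 lower and Cdon higher (background 6.69%). In ch- against ctrl, Cdon was the 1 member called, lower over both lines (background 2.72%), in HL60 (background 1.57%) and in ML1 (background 2.34%). Against ctrl, the median log2 fold change of the members was 0.10 in ch+ and −0.23 in ch-, where that of all genes was 0.01 in both. These comparisons share the same 3 ctrl libraries.

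The direct comparison of ch+ with ch- cells needs no ctrl library. It called Ptch1 lower and Cdon higher over both lines, 2 of 9 members against 7.72% of all genes, and in each line these 2 members, against 3.92% of all genes in HL60 and 4.25% in ML1. In late against ch+ over both lines, 3 members were called, all lower, where 21.1% of all genes were called, and with libraries rescaled to their totals 5 members were higher and 2 lower, where 9248 of 12976 genes were called. The lines themselves were compared within each stage. HL60 late differed from ML1 late in 1 member, Hhip (background 4.09%). In ch+ libraries limma called 0 members between the lines (background 0.0154%), with 2 members at an unadjusted p under 0.05, and in ch- libraries 0 members (background 0.0539%), with 0 at that unadjusted p. The backgrounds are for calls. Shares of all genes at an unadjusted p under 0.05 are not given here or below, so counts at that level cannot be set against them.

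**Figure D2:**
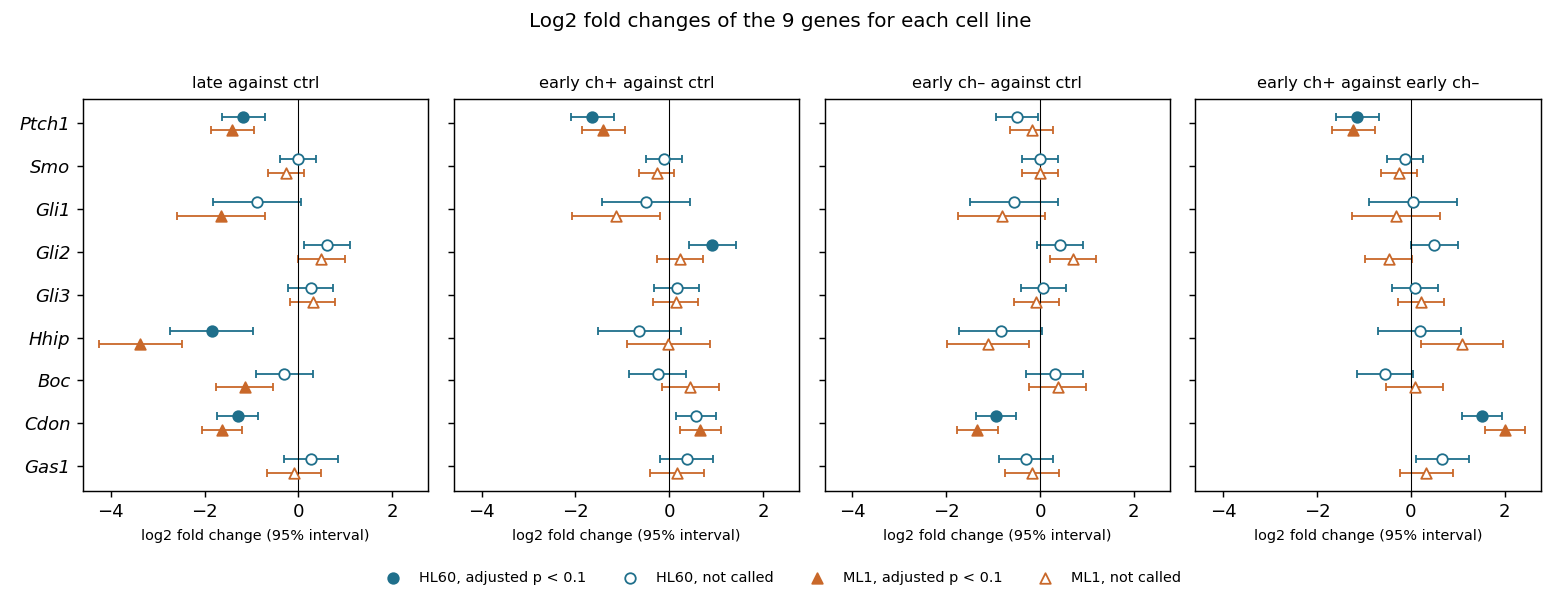
Log2 fold change (horizontal axis) of each of the 9 genes in 4 comparisons, for HL60 as circles and ML1 as triangles, with the 95% interval from limma as a bar and filled symbols for an adjusted p under 0.1. Ptch1 lies left of 0 in late and in ch+ cells with both lines, and Cdon lies left of 0 in late and ch- cells and right of 0 in ch+ cells.

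Ptch1, the receptor that binds Hedgehog ligands, had log2 values of 10.57, 10.54 and 10.55 in ctrl libraries. The ch- libraries had 10.09, 10.39 and 9.70 with HL60 and 10.91, 9.93 and 10.29 with ML1. In ch+ libraries it had 8.56, 9.13 and 9.07 with HL60 and 9.43, 9.24 and 8.77 with ML1. Every ch+ library was thus below every ch- and every ctrl library. Late libraries had 9.24, 9.64 and 9.24 with HL60 and 9.31, 9.20 and 8.91 with ML1, in the range of ch+ libraries or slightly above it and below all ctrl libraries. In late the log2 fold change of Ptch1 against ctrl was −1.30 over both lines (SE 0.194, adjusted p 7.27e-06 in limma), with −1.18 in HL60 and −1.41 in ML1. In ch+ it was −1.52 (SE 0.194, adjusted p 3.84e-06), with −1.64 in HL60 and −1.40 in ML1, and in ch- it was −0.33 (adjusted p 0.493), with −0.49 in HL60 (adjusted p 0.408), where all 3 libraries lay below ctrl, and −0.17 in ML1 (adjusted p 0.823), none called. The difference between ch+ and ch- was −1.19 (SE 0.158, adjusted p 3.86e-06), lower in 6 of 6 ch+ libraries. Late and ch+ differed by 0.22 (adjusted p 0.411 in limma), not called. With libraries scaled to the mean of their totals, late and ch+ differed by 0.84 (adjusted p 8.54e-05 in limma). At that setting the median of all genes moved to 0.63. In bulk libraries, fewer cells of a type that expresses a gene and less RNA of it per cell cannot be told apart.

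Markers of cartilage cells were also lower in late and in ch+ cells. Of 14 chondrocyte markers, 13 were tested, and all 13 were lower in late and in ch+ cells against ctrl, with median log2 fold changes of −3.60 and −3.95. In ch+ against ch- cells all 13 were lower again, with a median of −3.08. In ch- against ctrl the median was −0.82, and 1 of the 13 was called, Col2a1 at −0.90 (adjusted p 0.0672 in limma). The ch- median was −0.55 with HL60 and −0.94 with ML1. In late against ch+ 4 of the 13 were lower and 1 higher. Of 11 smooth muscle markers, 7 were lower in late, 8 in ch+ and 1 in ch- against ctrl, 8 were lower in ch+ than in ch-, and 6 were higher in late than in ch+ cells. The summed value of all 14 chondrocyte markers off the log scale, in units of 1000, was 135, 165 and 236 in the 3 ctrl libraries. Its lowest, median and highest values were 5.81, 15.9 and 34.2 in late, 45.4, 57.6 and 75.3 in ch+ and 90.2, 119 and 147 in ch- libraries. No chondrocyte sum of a ch+ or late library reached that of a ctrl library. Col2a1, the most abundant marker by its mean off the log scale over all libraries, had a log2 value of 11.02 or more in every library, with Col11a1 above it in HL60 ch+ (14.90 against 13.87), ML1 ch+ (14.86 against 13.28) and ML1 ch- means (15.29 against 15.20). Over the 21 libraries, the 5 tested genes whose values were most like those of Ptch1 were Rspo4 (Pearson's r 0.88), Ncmap (0.88), Meltf (0.85), Scrg1 (0.84) and Acan (0.84), the last of which is on the chondrocyte list. These correlations are a description over 21 libraries that share the groups. The part of cartilage and smooth muscle cells in the values of Ptch1 was not tested.

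Smo, which passes the signal on when released by PTCH1, stayed between 9.29 and 10.05 in all 21 libraries. Its mean was 9.84 in ctrl (SD 0.15, n = 3), 9.83 in ch- (SD 0.17, n = 6), 9.64 in ch+ (SD 0.29, n = 6) and 9.70 in late (SD 0.22, n = 6), and the groups overlapped. Its log2 fold change in late was −0.14 (95% interval −0.47 to 0.20, adjusted p 0.654 in limma), with −0.0045 in HL60 (adjusted p 0.994) and −0.27 in ML1 (adjusted p 0.391), where all 3 libraries lay below ctrl without a call. Its log2 fold change in late turns to 0.56 when each library is rescaled to the mean library total, a setting that moves the median of all genes to 0.71. Relative to that median Smo was at −0.15.

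Hhip encodes a membrane protein that binds Hedgehog ligands and keeps them from PTCH1. It had log2 values of 7.30, 7.66 and 6.52 in ctrl libraries. In ch- libraries Hhip had 6.82, 6.44 and 5.73 with HL60 and 6.54, 5.63 and 5.99 with ML1. The ch+ libraries had 5.77, 7.46 and 6.33 with HL60 and 7.42, 6.69 and 7.32 with ML1. Both early groups overlapped ctrl. Late libraries had 5.29, 5.68 and 4.99 with HL60 and 3.48, 4.26 and 3.63 with ML1. All 6 late libraries lay below every ctrl and every ch+ library, and the ML1 late libraries lay below the HL60 late libraries without overlap. The ML1 late values of Hhip lie near the filter level of 3.32, where regularized values are shrunken and the size of a difference is limited. The log2 fold change of Hhip in late was −2.61 over both lines (SE 0.374, adjusted p 3.97e-06 in limma), −1.84 in HL60 (adjusted p 0.00387) and −3.37 in ML1 (adjusted p 5.81e-07). Against ch+ it was −2.28 in late over both lines (SE 0.306, adjusted p 1.14e-06), with means of 5.32 in HL60 late and 6.52 in HL60 ch+ and of 3.79 in ML1 late and 7.14 in ML1 ch+ libraries. In ch- it was −0.97 (adjusted p 0.228) and in ch+ −0.33 (adjusted p 0.701), neither called.

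The difference of Hhip between HL60 late and ML1 late was 1.53 (SE 0.432, adjusted p 0.0446 in limma), which is also the test of the difference between the effects of the lines against ctrl. This call depends on single libraries. In limma it was lost without ML1 late replicate 581 (1.38, adjusted p 0.198) or 583 (1.45, adjusted p 0.172) and without HL60 late replicate 397 (1.55, adjusted p 0.12) or 398 (1.35, adjusted p 0.234), as well as without the filter on low values (adjusted p 0.126) and on rescaling to library totals (1.28, adjusted p 0.113), and over all alternatives the adjusted p ranged from 0.00227 to 0.234. Without ctrl replicate 374, 2 members were called between the lines in late, in a fit whose number of all genes called is not given. Of the 13 chondrocyte markers, 9 were also higher in HL60 late than in ML1 late (13 at an unadjusted p under 0.05), with a median of 2.09. Sums over all 14 listed chondrocyte markers were 23.9 to 34.2 in HL60 late against 5.81 to 8.04 in ML1 late. Over the 21 libraries, the genes most like Hhip were Xylt1 (Pearson's r 0.91), Colgalt2 (0.90), Crybg3 (0.90), Cd109 (0.90) and Pcsk6 (0.89).

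Osteoblast markers also differed in late, and between the lines there. Of 11 osteoblast markers, all tested, 10 were lower and 1 higher in late against ctrl, with a median log2 fold change of −1.93, and the median was −0.90 in HL60 and −2.99 in ML1. Their summed value, in units of 1000, was 1257, 1390 and 1711 in the 3 ctrl libraries, 404, 506 and 528 in HL60 late and 84.2, 93.4 and 135 in ML1 late. The sums of HL60 late, ML1 late and ctrl do not overlap, and 10 of the 11 markers were higher in HL60 late than in ML1 late, with a median of 2.01. In ch+ cells 5 of the 11 markers were lower, with sums of 942 to 1106, and in ch- cells 0 of 11 were called in limma (0 at an unadjusted p under 0.05), with sums of 1037 to 1457. Col1a1, the most abundant osteoblast marker, was at 15.76 or more in every library. CAR markers went the other way, with 8 of 10 higher and 1 lower in late, 8 of 10 higher in ch+ and 1 of 10 higher in ch- cells against ctrl. With ML1 alone 5 of 10 were higher in ch- (median 0.60). With HL60 alone limma called 0 of 10 there (2 at an unadjusted p under 0.05, median 0.23). The CAR sums were 72.7 to 97.5 in ctrl, 146 to 179 in late, 113 to 152 in ch+ and 65.5 to 123 in ch- libraries. The part of these cell types in the values of the members was not tested.

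Cdon encodes a co-receptor of the immunoglobulin superfamily that binds Hedgehog ligands together with PTCH1. Its log2 values were 9.88, 10.42 and 10.45 in ctrl libraries. In ch- libraries Cdon had 9.31, 9.61 and 9.01 with HL60 and 8.87, 8.83 and 9.05 with ML1. Values in ch+ libraries were 10.60, 11.33 and 10.56 with HL60 and 10.70, 10.97 and 11.08 with ML1. The ch+ libraries were all above ctrl and the ch- libraries all below it, with no overlap among the 3 groups. Late libraries had 8.79, 8.73 and 9.33 with HL60 and 8.58, 8.58 and 8.73 with ML1, again all below ctrl and overlapping ch-. Between ch+ and ch- the log2 fold change of Cdon was 1.76 over both lines (SE 0.148, adjusted p 8.64e-10 in limma), 1.52 in HL60 and 2.00 in ML1. This difference kept its call under every alternative, with values from 1.63 to 1.91 over both lines. Besides the chondrocyte and smooth muscle markers above, 3 of 10 CAR markers were higher in ch+ than in ch- cells. Lower there were 5 of 11 osteoblast markers and 2 of 3 tested hypertrophic chondrocyte markers. The part of these cells in the values of Cdon was not tested.

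Against ctrl, Cdon was lower in late by a log2 fold change of −1.46 (SE 0.182, adjusted p 3.67e-07 in limma), with −1.30 in HL60 and −1.62 in ML1. It was also lower in ch- by −1.14 (SE 0.182, adjusted p 0.00025), with −0.94 in HL60 and −1.34 in ML1. In ch+ it was higher by 0.62 over both lines (SE 0.182, adjusted p 0.0376), and in HL60 alone by 0.58 (adjusted p 0.142), not called, although it was on rescaling to library totals (0.68, adjusted p 0.064). The call over both lines was lost without ctrl replicate 373 (0.44, adjusted p 0.258) and without HL60 ch+ replicate 524 (0.50, adjusted p 0.105), and it was also lost without the filter on low values or without the mean-variance trend. The adjusted p over all its alternatives ranged from 0.0152 to 0.258. In late against ch+ cells Cdon differed by −2.08 (SE 0.148, adjusted p 3.72e-12). The ch- difference in HL60 alone was lost without ctrl replicate 374 (−0.85, adjusted p 0.105) or HL60 ch- replicate 529 (−0.79, adjusted p 0.15), without the filter on low values (adjusted p 0.109) and without the trend (adjusted p 0.108). In ML1 ch+ against ctrl, the log2 fold change of Cdon was 0.66 (adjusted p 0.0666), a call lost without ctrl replicate 373 (0.48, adjusted p 0.291), ML1 ch+ replicate 539 (0.64, adjusted p 0.176) or 541 (0.58, adjusted p 0.2), with library weights (adjusted p 0.169), without the filter (adjusted p 0.201) and without the trend (adjusted p 0.173).

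Boc, a co-receptor related to Cdon, had log2 values of 7.62, 8.65 and 7.35 in ctrl libraries, a wide spread. In late libraries Boc had 7.42, 7.76 and 7.53 with HL60, inside the range of ctrl, and 6.30, 6.57 and 7.31 with ML1, all below it. In ch- libraries it lay between 7.92 and 8.47 and in ch+ libraries between 7.43 and 8.58, both overlapping ctrl. The log2 fold change in late was −0.72 over both lines (SE 0.255, adjusted p 0.0474 in limma), −0.30 in HL60 (adjusted p 0.631) and −1.14 in ML1 (adjusted p 0.00522). Over both lines this call was lost without ctrl replicate 374 (−0.34, adjusted p 0.461), without ML1 late replicate 581 (−0.62, adjusted p 0.115) and without the ML1 late libraries (−0.30, adjusted p 0.628), with both lines pooled in 4 groups (adjusted p 0.106) and without the filter on low values (adjusted p 0.115), and the exact two-sided permutation test of the 6 late against the 3 ctrl libraries gave p = 0.167. Its adjusted p over all alternatives ranged from 0.0149 to 0.924. In late against ch+ cells, Boc differed by −0.83 (SE 0.208, adjusted p 0.00442), by −0.40 (adjusted p 0.407) without the ML1 late libraries and by −0.21 (adjusted p 0.388) on rescaling to library totals. HL60 and ML1 differed in the opposite direction in the 2 stages, by −0.70 in ch+ (adjusted p 0.585) and by 0.84 in late (adjusted p 0.156), without overlap between the lines but without a call.

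Gas1 encodes a membrane-anchored co-receptor that also promotes ligand binding. It lay between 7.68 and 9.05 in all 21 libraries, with a mean of 8.32 in ctrl (SD 0.29, n = 3), 8.08 in ch- (SD 0.52, n = 6), 8.58 in ch+ (SD 0.17, n = 6) and 8.41 in late (SD 0.35, n = 6). All groups overlapped. In late the log2 fold change against ctrl was 0.09 over both lines (95% interval −0.40 to 0.58, adjusted p 0.867 in limma), 0.27 in HL60 (adjusted p 0.654) and −0.09 in ML1 (adjusted p 0.877), none called. The log2 fold change between ch+ and ch- was 0.50 (95% interval 0.10 to 0.90), with an adjusted p of 0.156 in limma and no call. It passed the threshold without ML1 ch- replicate 543, the ch- library with the highest Gas1 value, at 0.72 (adjusted p 0.00772), and with each library rescaled to the mean library total, at 0.65 (adjusted p 0.0299). Over the alternatives 0.00772 was its lowest adjusted p.

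Gli1, a transcriptional activator and a widely used readout of Hedgehog signaling, was the lowest of the members per length in ctrl. Its log2 values were 5.63, 4.62 and 6.02 in ctrl libraries, 4.28, 5.31 and 5.03 in HL60 ch- libraries and 4.07, 4.86 and 4.87 in ML1 ch- libraries. Among ch+ libraries the values were 3.91, 4.89 and 5.96 with HL60 and 4.51, 4.22 and 4.13 with ML1. Late libraries had 4.72, 4.58 and 4.31 with HL60 and 3.77, 3.50 and 4.05 with ML1. The late, ch+ and ch- libraries over both lines overlapped ctrl, where replicate 374 was the lowest, whereas the ML1 late and ML1 ch+ libraries lay below all ctrl libraries. In late the log2 fold change of Gli1 was −1.27 over both lines (SE 0.396, adjusted p 0.0232 in limma), −0.89 in HL60 (adjusted p 0.267) and −1.65 in ML1 (adjusted p 0.0097). The call over both lines was lost without ctrl replicate 375 (−0.97, adjusted p 0.165) and without the ML1 late libraries (−0.89, adjusted p 0.317), and its adjusted p over all alternatives ranged from 0.00822 to 0.317. In ch+ it was −0.82 (adjusted p 0.268) and in ch- −0.69 (adjusted p 0.488), neither called. Regularized values of weakly expressed genes are shrunken, which limits the size of differences in Gli1. Genes with the values most like those of Gli1 over the 21 libraries were Eef1akmt3 (Pearson's r 0.75), Mtus1 (0.74), Creb3l3 (0.73), Mad1l1 (0.73) and Rsrc1 (0.73), while r with Ptch1 was 0.42 and with Hhip 0.43.

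Gli2, the main activator of the pathway, moved the other way. Its log2 values were 7.17, 7.57 and 7.54 in ctrl libraries, 7.81, 8.08 and 7.66 in HL60 ch- and 8.15, 8.09 and 8.15 in ML1 ch- libraries. In ch+ libraries it had 8.61, 8.65 and 7.77 with HL60 and 7.75, 7.37 and 7.85 with ML1. Late libraries had 8.10, 8.18 and 7.83 with HL60 and 7.85, 8.05 and 7.83 with ML1. All ch- and all late libraries lay above every ctrl library, and in ch+ 1 ML1 library overlapped ctrl. The log2 fold change in late was 0.55 (SE 0.211, adjusted p 0.0723 in limma), a call that was lost in each of 5 fits that left out 1 library. These were ctrl replicate 373 (0.42, adjusted p 0.272), ctrl replicate 375 (0.61, adjusted p 0.101), ML1 late replicate 582 (0.51, adjusted p 0.134) and HL60 late replicates 397 (0.53, adjusted p 0.114) and 398 (0.51, adjusted p 0.131), and over all alternatives the adjusted p ranged from 1.99e-05 to 0.272. The call was also lost without the ML1 late libraries (0.61, adjusted p 0.162) and with both lines pooled in 4 groups (adjusted p 0.114). In late it was 0.61 in HL60 (adjusted p 0.121) and 0.49 in ML1 (adjusted p 0.19), neither called. In ch- it was 0.56 (adjusted p 0.218) and in ch+ 0.57 (adjusted p 0.12), neither called. The ch+ difference was called on rescaling to library totals (0.65, adjusted p 0.0596) and without HL60 ch+ replicate 525 (0.72, adjusted p 0.0308) or ML1 ch+ replicate 539 (0.65, adjusted p 0.0857).

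In HL60 ch+ cells alone Gli2 was called higher than ctrl, by 0.92 (SE 0.244, adjusted p 0.0274 in limma), against 0.23 (adjusted p 0.711) in ML1 ch+ cells. The difference between the lines was 0.69 (adjusted p 0.538), so the effects of the lines were not shown to differ. The HL60 call was lost without ctrl replicate 373 (0.79, adjusted p 0.119) and without HL60 ch+ replicate 523 (0.79, adjusted p 0.144) or 524 (0.77, adjusted p 0.154), and with these groups fitted alone (adjusted p 0.135), and its adjusted p over all alternatives ranged from 0.00561 to 0.154.

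Gli3, the main repressor among the GLI factors, lay between 8.50 and 9.71 in all libraries, with a mean of 9.12 in ctrl (SD 0.20, n = 3), 9.11 in ch- (SD 0.42, n = 6), 9.26 in ch+ (SD 0.32, n = 6) and 9.40 in late (SD 0.09, n = 6). The groups overlapped, and late had the smallest spread. In late the log2 fold change was 0.29 (95% interval −0.13 to 0.70, adjusted p 0.391 in limma), with 0.27 in HL60 (adjusted p 0.584) and 0.31 in ML1 (adjusted p 0.442), none called, and the ML1 late libraries lay above all ctrl libraries.

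Late values depend on the scale more than early ones. With each library rescaled to the mean library total, the median of all tested genes moved to 0.71 in late against ctrl, and the calls of Gli1 (−0.58, adjusted p 0.212) and Boc (−0.03, adjusted p 0.924) were lost, in ML1 alone as well (−0.83, adjusted p 0.117, and −0.33, adjusted p 0.344). Called higher in limma were Gli2 (1.24, adjusted p 1.99e-05), Gli3 (0.98, adjusted p 0.00027), Gas1 (0.78, adjusted p 0.00668) and Smo (0.56, adjusted p 0.00958). Ptch1 (−0.60), Hhip (−1.92) and Cdon (−0.77) were still called lower. At this setting 8533 of 12976 genes were called in late against ctrl over both lines. The same 4 members were higher and the same 3 lower in HL60 alone (5527 of 12976 genes called) and in ML1 alone (8781 of 12976). Relative to the median of all genes on this scale, Hhip was at −2.63, Cdon at −1.48, Ptch1 at −1.32, Gli1 at −1.29, Boc at −0.74, Smo at −0.15, Gas1 at 0.07, Gli3 at 0.27 and Gli2 at 0.53. Rescaling shifts all genes of a library by the same amount. Values relative to the median therefore equal those on the deposited scale by construction and are not a second test. In late against ch+ on this scale, where the median of all genes moved to 0.63 and 9248 of 12976 genes were called, Ptch1, Gli3 (0.76), Smo (0.68), Gli2 (0.59) and Gas1 (0.44) were called higher and Hhip (−1.66) and Cdon (−1.47) lower. Relative to that median the 5 higher members were at 0.20, 0.12, 0.04, −0.04 and −0.20.

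The rest of the pathway was followed with 6 fixed lists of 51 genes in all, of which 40 were tested. Over both lines limma called 8 of the 40 in late, 3 in ch+ and 1 in ch- against ctrl, 1 between ch+ and ch- and 9 between late and ch+, which is 20%, 7.5%, 2.5%, 2.5% and 22.5% of them, where 22.8%, 8.18%, 2.72%, 7.72% and 21.1% of all genes were called. Leaving out single libraries gave 5 to 10, 1 to 4, 0 to 2, 1 to 2 and 7 to 10 in the same order, without the numbers of all genes called in these fits. The 1 in ch- was lost under 7 other settings. Without the ML1 late libraries 4 of the 40 were called in late against ctrl and 4 in late against ch+, where 1642 and 1518 of 12976 genes were called. On rescaling to library totals 23 and 26 of the 40 were called, where 8533 and 9248 of 12976 genes were called. None of the ligand genes passed the filter. Shh had a log2 value of −2.13 in every library, Dhh reached at most 2.70 and Ihh, which is made by cartilage cells, had a mean of 3.00 in ctrl libraries, 2.12 in late, 1.91 in ch+ and 2.59 in ch-. No test was made on these values.

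Of the 5 tested genes for ligand acylation and release, 3 were lower in late over both lines. They were Scube1 (−1.34, adjusted p 0.0317 in limma) and Scube2 (−1.17, adjusted p 0.0232), which encode secreted proteins that help release the ligand, and Disp1 (−0.66, adjusted p 0.061), which encodes the transporter that exports it. With ML1 all 3 were called (−2.30, adjusted p 0.00118, −1.62, adjusted p 0.00596, and −0.76, adjusted p 0.0618), while with HL60 limma called 0 of the 5 (0 at an unadjusted p under 0.05), with −0.38, −0.73 and −0.56. Scube2 was also lower in ch+ cells (−1.20, adjusted p 0.0492). Against ch+ cells, late cells were lower in Disp1 (−1.12, adjusted p 8.82e-05) and Scube1 (−0.96, adjusted p 0.0678). Scube1 averaged 6.40 in HL60 late and 4.48 in ML1 late (difference 1.92, adjusted p 0.0278).

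Among 16 genes that act downstream of SMO, limma called 1 in late against ctrl, Prkacb, a catalytic subunit of protein kinase A (−0.44, adjusted p 0.0698), with −0.24 in HL60 (adjusted p 0.544), not called, and −0.64 in ML1 (adjusted p 0.0186). In late against ch+ cells Prkar1a (0.66, adjusted p 0.000319), Gsk3b (0.29, adjusted p 0.0407) and Csnk1a1 (0.30, adjusted p 0.0661) were higher, all of them kinase genes or kinase subunits that act on GLI proteins. Sufu, the cytoplasmic inhibitor of GLI proteins, had a mean of 7.46 in ctrl and 7.97 in late (0.51, adjusted p 0.205), not called. Of 12 genes of the primary cilium and intraflagellar transport, limma called 0 in any comparison over both lines, with 1 at an unadjusted p under 0.05 in late, 2 in ch+ and 0 in ch- against ctrl, 2 between ch+ and ch- and 2 between late and ch+. With ML1 alone 1 of the 12 was called, lower in late against ctrl.

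Of 11 further targets and linked genes, 6 were tested. The 4 named below were called in late against ctrl in HL60 and in ML1 as well as over both lines. Bcl2, an inhibitor of apoptosis, was higher in late (1.63, adjusted p 1.01e-06 in limma), ch+ (0.68, adjusted p 0.0628) and ch- (0.79, adjusted p 0.0561) against ctrl, and higher in late than in ch+ (0.96, adjusted p 0.000129). In ch+ Bcl2 was called with HL60 (1.08, adjusted p 0.00939) and not with ML1 (0.27, adjusted p 0.647), which overlapped ctrl. Against ctrl, ch- cells gave a call of Bcl2 in neither line alone (0.81, adjusted p 0.143, and 0.76, adjusted p 0.139), and it is the 1 pathway gene in ch- whose call was lost under the settings above. Foxc2, a forkhead transcription factor of skeletal mesenchyme, was higher in late (1.53, adjusted p 0.000883) and higher there than in ch+ (1.09, adjusted p 0.00328). Pthlh and Pth1r encode the ligand and the receptor of the loop that Indian hedgehog drives in the growth plate. Pthlh was lower in late (−1.74, adjusted p 0.000597) and lower there than in ch+ (−1.16, adjusted p 0.00449). Pth1r, which is also on the list of hypertrophic chondrocyte markers, was lower in late (−1.67, adjusted p 4.8e-11), in ch+ against ctrl (−0.63, adjusted p 0.00249) and against ch- (−0.59, adjusted p 0.000414), and in late against ch+ (−1.04, adjusted p 1.01e-08).

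Markers of other cells moved with the early groups, here over both lines unless a line is named. The study's methods describe the removal of blood cells by their CD45 and a stain for CD45 and Ter119 ahead of the sort. Of 8 tested blood cell markers, all 8 were higher in ch+ and in ch- than in ctrl, and 3 of the 8 were lower in late. The summed value of all 10 listed blood cell markers, in units of 1000, was 0.274 to 0.626 in ctrl and 0.12 to 0.269 in late libraries. It was 1.21 to 2.91 in ch+ and 1.63 to 3.26 in ch-, with Lyz2 as the most abundant by its mean off the log scale over all libraries. All 7 tested red cell markers were higher in both early groups too, and 4 of the 7 were lower in late. Their sums were 0.33 to 0.697 in ctrl and 0.0882 to 0.124 in late libraries, against 4.36 to 12.9 in ch+ and 5.09 to 10.2 in ch-, with Hbb-bs as the most abundant. Between ch+ and ch- over both lines limma called 0 of the 8 and 0 of the 7, with 0 at an unadjusted p under 0.05, whereas in HL60 alone it called 1 blood cell marker, Ptprc (1.59, adjusted p 0.0753). Smooth muscle markers were lower in late (7 of 11) and in ch+ cells (8 of 11), and 8 of 11 were lower in ch+ than in ch- cells, with sums of 15.0 to 33.0 in ctrl, 6.92 to 11.9 in late, 4.86 to 7.88 in ch+ and 10.8 to 19.3 in ch- libraries, and Myh11 as the most abundant by the same measure, though Mylk was above it in the ch+ and late means of both lines. In ch- against ctrl 1 of the 11 was lower. All 4 tested skeletal muscle markers were higher in ch+ than in ctrl. Sums over all 7 listed skeletal muscle markers were 0.0515 to 0.123 in ctrl and 0.15 to 0.608 in ch+, with Acta1 as the most abundant by that measure. In ch- 2 of the 4 were higher and in late 1 was lower. Endothelial markers, of which 6 of 9 were tested, gave 0 calls in limma against ctrl in late, ch+ or ch- over both lines, with 1, 0 and 0 at an unadjusted p under 0.05, and 4 were lower in late than in ch+ cells. In ML1 late alone 4 of the 6 were lower than ctrl, with a median of −0.98, among them Pecam1 (−1.02, adjusted p 0.0541), and in HL60 late limma called 0 (0 at an unadjusted p under 0.05). Of 3 tested hypertrophic chondrocyte markers, Mmp13 the most abundant, 2 were lower and 1 higher in late, and 2 were lower in ch+ cells against ctrl. The part of these cells in the values of the members was not tested.

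Ptch1 and Hhip are both known targets of the pathway and both were lower in late, so the 250 bases before the start of each gene are shown, from RefSeq on GRCm38.p6, minus strand, 5′ to 3′. Of the 9 members, 7 were matched in that table, all but Gli1 and Boc. The windows of Ptch1, Gli3 and Cdon lie inside the annotated gene, and that of Cdon overlaps an exon of Cdon itself. The published GLI binding motif GACCACCCA, searched on both strands, was in 0 of the 7 windows, also with up to 1 mismatch, where 0.225% of all 32851 windows of the same length hold it exactly and 5.79% with up to 1 mismatch. Capitals mark CCACCC on either strand, the stretch inside that motif, which was in 4 of the 7 windows (Smo, Hhip, Gli2 and Gli3) and in 28.1% of all windows. Hhip had 1 match and Ptch1 0 in a window of 78.4% G and C. The Ptch1 window lies inside the annotated gene, upstream of the RefSeq start and outside annotated exons, at chr13:63565736-63565985, and that of Hhip lies outside the annotated gene at chr8:80058009-80058258.
Ptch1: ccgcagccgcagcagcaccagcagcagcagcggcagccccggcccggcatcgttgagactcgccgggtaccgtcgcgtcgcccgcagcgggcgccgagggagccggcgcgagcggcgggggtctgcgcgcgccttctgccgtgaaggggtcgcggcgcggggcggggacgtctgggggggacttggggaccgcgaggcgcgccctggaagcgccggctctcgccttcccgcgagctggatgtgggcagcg
Hhip: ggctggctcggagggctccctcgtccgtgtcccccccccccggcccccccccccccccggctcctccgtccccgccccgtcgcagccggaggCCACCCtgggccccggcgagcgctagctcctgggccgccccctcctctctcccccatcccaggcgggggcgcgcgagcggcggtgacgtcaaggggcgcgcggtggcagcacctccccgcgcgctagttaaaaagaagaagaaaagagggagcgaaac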

How the data were processed

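RNA-seq was done on 21 libraries of sorted Nes low cells. The authors aligned reads with STAR 2.5.1b, estimated counts with RSEM 1.2.29 on mm10 and normalized and regularized them with DESeq2 1.10.1, per the labels, and the deposited values were read as log2, although the paper names log10, since on that scale their range of −2.33 to 22.44 would be impossible. Of 26852 genes, 26686 matched a symbol. The paper gives a typical read yield, and the depth of single libraries is unknown. Genes with a mean log2 value of at least 3.32 (12976) were fitted in R 4.3.3 with limma 3.58.1, 7 groups in 1 fit with a mean-variance trend, two-sided, with Benjamini-Hochberg adjustment over these genes and a threshold of 0.1, in 16 comparisons. The code was tested on simulated data with 50 genes changed at each size. In late against ctrl over both lines it called 4% of changes of 0.5 on the log2 scale, 32% of 1 and 92% of 2. In ch+ against ch- over both lines these were 18%, 66% and 100%. Among unchanged genes there were 42 and 68 calls in these 2 comparisons, with 12976 genes tested. Exact two-sided permutation tests compared the stages for each member. Python 3.11.15 with matplotlib 3.10.9 drew the figures.

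The members and lists were chosen with earlier results of these data known. Named are all 9 members, the other pathway genes called over both lines (at most 4 per list and comparison, by smallest p), the ligands, Sufu, Nes, Ptprc and Pecam1, and the 5 genes most like Ptch1, Gli1 and Hhip. Scube1 between the lines was named after its value was seen. Alternatives changed the grouping, filter, normalization, trend, library weights, threshold and libraries in the fit. Those on the other pathway genes, and leaving out the ML1 late libraries, were chosen after seeing the data.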

Additional observations from a re-analysis of the deposited data

Results flagged for a closer look

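Among the 27 combinations of a member and a stage with 6 libraries, 1 had a library far from the others by the 95% level of Dixon's test, where chance gives about 1 in 20 such groups. It was Cdon in late libraries, where HL60 replicate 399 had a log2 value of 9.33, the nearest other library 8.79 and the lowest 8.58, a gap of 0.713 of the whole range. Hhip differed between the lines in late by 1.53 on the log2 scale, HL60 above ML1, by the test of the difference itself. The cause of neither was tested.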

How the results depend on the processing

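The depth of single libraries is unknown, which limits what can be said of weakly expressed genes such as Gli1. No paired analysis was made, because replicate numbers are not shared between groups and the labels do not pair ch+ with ch- libraries. The study describes both as from the same marrow, and the order of the replicate numbers was not used as a pairing. Where a fit left 2 libraries in a group, their spread was pooled with that of the other groups. Of the counts of members called, 469 stayed within 1.5 times the reported count and 34 did not. The log2 fold changes of members were followed in 64 tests, those over both lines and those called within a line. Of their values under the alternatives, 1955 kept direction and side of the threshold, 54 lost their call, 10 gained one and kept their sign and 36 changed sign. All of the last were in members not called in the main fit, and 3 of them were called after rescaling (Smo in late against ctrl, Gli2 and Gas1 in late against ch+). Tests within a line that were not called are outside this tally, and on rescaling some of them gained a call or changed sign. The causes were not tested. The exact permutation tests of the members were not adjusted, and 0.0119 is the smallest p they can give for 6 against 3 libraries. In late against ctrl they gave 0.0119 for Ptch1, Gli2, Hhip and Cdon and 0.0238 for Gli1 and Gli3. Boc had 0.167, Smo 0.369 and Gas1 0.774. In ch- against ctrl they gave 0.0119 for Gli2 and Cdon, 0.0476 for Hhip and 0.119 or more for the rest. Limma called neither Gli3 in late nor Gli2 and Hhip in ch-.

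Numbers in parentheses are all genes called, of 26852 without the filter and of 12976 elsewhere. Without the filter on low values, the members called were 1 in ch+ against ctrl over both lines (768), 1 in ch+ with ML1 (632), 0 in ch- with HL60 (133) and 0 between HL60 and ML1 in late (426). With each library rescaled to its total they were 7 in late against ch+ over both lines, 5 higher and 2 lower (9248), 7 in late with HL60 (5527) and 0 between the lines in late (705). Without the trend they were 1 in ch+ over both lines (824), 1 in ch+ with ML1 (672) and 0 in ch- with HL60 (138). With library weights they were 1 in ch+ with ML1 (533) and 2 between the lines in late (1183), and at a threshold of 0.05 they were 1 in ch+ with ML1 (604). With a minimum change of 1 they were 1 in ch+ over both lines (536), 1 with HL60 (417), 1 with ML1 (549) and 0 in ch- with HL60 (144). With the compared groups fitted alone they were 1 in ch+ with HL60 (484) and 2 between the lines in late (990), and without the ML1 late libraries 3 in late over both lines (1642).

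Leaving out each library in turn gave 1 to 3 members in ch+ over both lines, 1 to 2 with HL60, 1 to 3 with ML1, 0 to 1 in ch- with HL60, 0 to 2 between the lines in late, 4 to 6 in late over both lines, 3 to 4 in late with HL60 and 2 to 3 between ch+ and ch- over both lines. The numbers of all genes called in these fits are not given, so the ranges describe the stability of the member counts only.

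Signs changed as follows on the log2 scale, over both lines. Quantile normalization gave 0.018 for Smo and 0.032 for Gli3 in ch- against ctrl and 0.011 for Gli2 in late against ch+. Rescaling gave 0.56 for Smo in late against ctrl, 0.017 for Gli1 in ch+ against ch-, and 0.17 for Gli1, 0.59 for Gli2 and 0.44 for Gas1 in late against ch+. Library weights gave −0.0085 for Gli2 in ch+ against ch-. Without the ML1 late libraries, late against ch+ was 0.036 for Gli2 and 0.0040 for Gas1. Leaving out single libraries gave ranges of −0.049 to 0.24 for Gas1 in late against ctrl, −0.16 to 0.49 for Boc in ch+ against ctrl, −0.062 to 0.078 for Smo and −0.14 to 0.17 for Gli3 in ch- against ctrl. Between ch+ and ch- they were −0.40 to 0.12 for Gli1, −0.066 to 0.15 for Gli2 and −0.021 to 0.28 for Gli3, and in late against ch+ −0.017 to 0.16 for Smo and −0.17 to 0.051 for Gli2.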
